A study of Malus domestica with 36 samples.

Results

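Peel of 'Granny Smith' apples kept in ULO, a low oxygen storage at 1% oxygen, was compared between T2 and T1 in 3 biological replicates at each time. Every gene with at least 1 FPKM in at least 3 of the 36 libraries of the study was included, which left 32923 of 57423 genes. The deposited values were taken to be FPKM, that is, fragment numbers corrected for gene length and library size, although no source states the unit. The study measured peel RNA of this 1 cultivar in 12 groups, made of 3 storage regimes (ULO, DCA_CF and RA), each at T1 and T2 and each with and without SL. DCA also stands for low oxygen, held below 1%, per the labels, which do not expand RA, CF, SL, T1 or T2 and give no storage lengths. The ULO libraries described first carry no SL tag at either time. The time response of ULO was then set against 3 others, each from its own 3 T1 and 3 T2 libraries: DCA_CF without SL, RA without SL, and ULO with SL. Whether a replicate was 1 fruit or a pool is not stated. The p-values rest on the spread between samples within a group, estimated jointly over all 12 groups.

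Stored apples keep ripening after harvest. Ripening is driven by ethylene, which is made by ACC synthase and ACC oxidase, is sensed by receptors in the endoplasmic reticulum, and acts through EIN2, EIN3-like factors and ethylene response factors. Low oxygen slows respiration and ethylene action, and plant cells answer it with fermentation enzymes and non-symbiotic haemoglobin. In 'Granny Smith' peel, storage can end in superficial scald, a browning linked to the oxidation of the sesquiterpene alpha-farnesene and of phenolics.

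The 6 libraries were even in what they hold. Summed FPKM lay between 707998 and 710943 at T1 and between 707401 and 710176 at T2, and 35635 to 35795 genes were above 0 at T1 against 36027 to 36219 at T2. The median coefficient of variation between replicates of genes at 10 to 100 FPKM was 3.92% at T1 and 3.83% at T2, and it rose to 14.6% and 14.2% at 1 to 3 FPKM. Read totals are not given. Of the listed markers of epidermis and cuticle, 2 genes were tested. GDSL, whose rise is given below, is not among these 2, although the list was meant to take in genes of that name. GPAT, a glycerol-3-phosphate acyltransferase, stood at 7.76 ± 1.26 FPKM at T1 and 9.15 ± 0.454 FPKM at T2 (SD, n = 3). MYB91 entered that list by another of its symbols, not by this name. It was low, at 1.57 ± 0.287 FPKM at T1 and 2.28 ± 0.442 FPKM at T2. Neither of the 2 listed phloem and xylem genes passed the filter and no light-harvesting gene is named in the table, so the label peel could be checked only this far. In whole peel, fewer cells of a type and less RNA per cell cannot be told apart.

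Most of the peel transcriptome differed between T1 and T2. At a false discovery rate of 0.05 in limma, 21453 genes (65.2% of those tested) changed: 12092 (36.7%) were higher and 9361 (28.4%) lower at T2. Of these, 4028 genes (12.2%) rose and 2714 (8.24%) fell at least 2-fold on the log2(FPKM + 1) scale. The 3 T1 and 3 T2 libraries did not overlap in 23516 genes (71.4%), 13221 of them (40.2%) higher and 10295 (31.3%) lower at T2. Which direction held more genes depended on the scaling: with RLE size factors 10263 genes were higher and 10933 lower, and with upper quartile scaling 10247 were higher and 11023 lower. The highest genes mostly fell: of 30 genes with a mean of 1000 FPKM or more, 23 fell and 4 rose, with a median log2 fold change of -0.729, whereas 50.7% of the 1095 genes at 100 to 1000 FPKM rose and 37.2% fell. The 100 highest genes together held 26.2% of summed FPKM at T1 and 18.6% at T2. Only 571 tested genes (1.73%) carry a gene name, and 198 of these rose (34.7%) and 253 fell (44.3%), and both sets of shares serve as background for the gene groups. All log2 fold changes are T2 against T1 on the log2(FPKM + 1) scale, with their standard errors from limma and 3 libraries a group.

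The largest rise among well expressed named genes was that of EXPA1 (LOC103447269), an expansin, a protein that loosens cell walls. Its level was 6.4, 5.58 and 5.47 FPKM at T1 and 333, 349.8 and 346 FPKM at T2. The 3 T2 libraries lay far above all 3 T1 libraries, and the means differed 59-fold (log2 fold change 5.66 ± 0.089, limma adjusted p = 3.3e-27). The other large rises included those of a pair of lipoxygenases, enzymes that add oxygen to polyunsaturated fatty acids. LOX5a (LOC103438366) stood at 61.1, 64.1 and 62.5 FPKM at T1 and 579, 585 and 568 FPKM at T2, a 9.23-fold difference of the means. LOX5b (LOC103418601) was close to silent before, at 1.61, 1.95 and 0.193 FPKM at T1 and 30.1, 31.3 and 21.6 FPKM at T2, and rose by 3.76 ± 0.4. For both, every T2 library was above every T1 library, although LOX5b varied more between replicates than most genes.

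Other strong risers came from unrelated families. AP2D29 (LOC103453426), an AP2/ERF domain factor, rose from levels between 2.35 and 2.96 FPKM to levels between 38.3 and 41.1 FPKM (log2 fold change 3.48 ± 0.093). OMT1 (LOC103426312), by its name an O-methyltransferase, was at 30.2, 29.3 and 27.4 FPKM at T1 and 154, 154 and 148 FPKM at T2 (log2 fold change 2.35 ± 0.039). HY5, a bZIP factor of light signalling in Arabidopsis, was low at 0.80, 1.47 and 1.49 FPKM at T1 and 8.52, 9.65 and 9.23 FPKM at T2, and rose by 2.18 ± 0.16. MYB31 rose by 2.06 ± 0.082 and YTP2 by 2.2 ± 0.083. CAS2 (LOC103405317) rose by 2.02 ± 0.039, from 212 to 862 FPKM. In each of these genes, and in EXPA1, LOX5a and LOX5b, the T1 and T2 libraries were fully separated. That was a condition of their selection, and 71.4% of all genes met it.

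GLB1, a non-symbiotic haemoglobin of the kind that plants induce under low oxygen, had the largest fall among named genes with a mean log2(FPKM + 1) of at least 2. Its level was 1278, 1273 and 1275 FPKM at T1 and 57.4, 55.6 and 56.5 FPKM at T2. All 3 T2 libraries were far below the T1 libraries, and the T1 mean was 22.6 times that at T2 (log2 fold change -4.47 ± 0.07, limma adjusted p = 2.84e-27). DHN2 (LOC103401165), a dehydrin, a type of protein that accumulates under cold and drought, was at 2689.7, 2533 and 2660.2 FPKM at T1 and 308, 291 and 303 FPKM at T2. It fell by 3.12 on the log2 scale, with no overlap. The transcription factors NAC7 (-3.53 ± 0.11), AP2D50 (-3.5 ± 0.091), AP2D17 (-3.3 ± 0.11) and MYB7 (-3.12 ± 0.087) were also among the 10 largest falls of such named genes. So were MYBR7 (-3.02 ± 0.079), AP2D16 (-3.0 ± 0.12) and the scarecrow-like SCL8 (-2.95 ± 0.059). Lack of overlap between T1 and T2 libraries was a condition for this set, as it was for the risers. AP2D16 and AP2D17 went from at least 5 FPKM in every T1 library to under 1 FPKM in every T2 library.

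**Figure D1:**
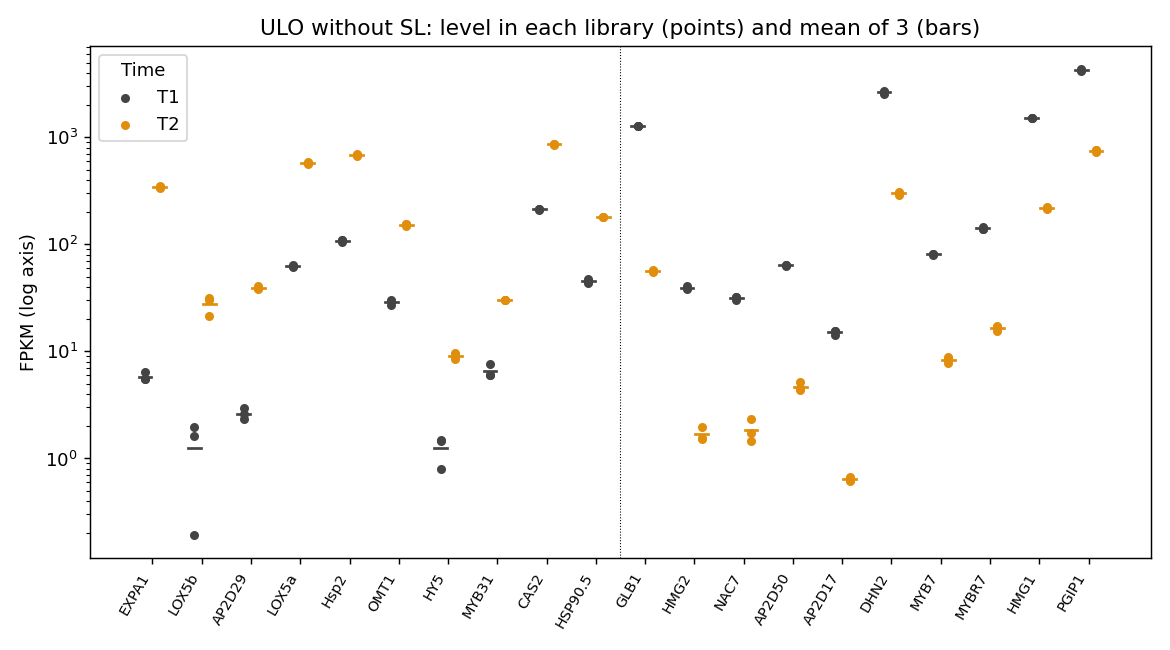
Level (FPKM, log axis) of 20 named genes in each of the 3 T1 libraries (dark points) and 3 T2 libraries (orange points) of ULO without SL, with bars at the means; genes that rose stand left of the dotted line and genes that fell right of it. EXPA1 shows the widest upward gap, from a mean of 5.82 to 343 FPKM, and GLB1 falls from 1275 to 56.5 FPKM, with replicates close together beside these differences.

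Isoprenoid synthesis showed a split. Of 8 tested members of the isoprenoid and triterpene list, 4 fell and 2 rose (median log2 fold change -0.85, against 0.064 over all genes). HMG1 (LOC103410649) and HMG2 (LOC103421562) encode HMG-CoA reductase, the rate-limiting enzyme of the mevalonate pathway. HMG1 was measured at 1505, 1507 and 1524 FPKM at T1 and 217, 215 and 223 FPKM at T2, and HMG2 at 38.1, 40.6 and 39 FPKM at T1 and 1.98, 1.55 and 1.53 FPKM at T2. Both were lower in every T2 library, by 2.79 and 3.91 on the log2 scale. The oxidosqualene cyclases OSC1 and OSC3 (LOC103432258), which build the triterpene skeletons that are abundant in apple peel, fell as well. OSC1 was at 816, 833 and 804 FPKM at T1 and 261, 259.7 and 264 FPKM at T2, and OSC3 at 347, 342 and 341 FPKM at T1 and 136, 133 and 135 FPKM at T2. No library of either gene overlapped, and the log2 fold changes were -1.64 ± 0.051 and -1.34 ± 0.048. OSC4, another cyclase, was low at both times with means of 0.160 and 0.844 FPKM and rose by 0.66 ± 0.13. AFS1 (LOC103446592), the alpha-farnesene synthase that uses the farnesyl diphosphate made by this pathway, moved the other way from the reductases. Its level was 576, 579 and 567 FPKM at T1 and 851, 855 and 820.3 FPKM at T2, higher in every T2 library (log2 fold change 0.55 ± 0.028, limma adjusted p = 3.67e-16).

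The ethylene synthesis genes ACO1 and ACS1 fell, and genes of ethylene perception and signalling moved both ways. ACO1 (LOC103446762), an ACC oxidase, was the highest gene of the ULO libraries by mean level, at 19269, 18606 and 19101 FPKM at T1 and 10808, 11004 and 11314 FPKM at T2. It fell by 0.78 on the log2 scale with no overlap. ACS1 (LOC103405045), the ripening-related ACC synthase of apple, was at 26.5, 29 and 26.3 FPKM at T1 and 18.7, 19.5 and 20.7 FPKM at T2 and fell (log2 fold change -0.46 ± 0.065), with every T2 library below every T1 library. CAS1, listed beside CAS2 by its symbol, was at 696, 698 and 692 FPKM at T1 and 1904, 1929 and 1916 FPKM at T2 and rose by 1.46 ± 0.021. In all, 2 of the 6 tested members of the ethylene synthesis list rose, CAS1 and CAS2, and 2 fell, ACO1 and ACS1. These shares, 33.3% each, stand beside 36.7% higher and 28.4% lower among all genes. CAS1 and CAS2 are on the list by symbol alone, their part in ethylene synthesis was not checked, and no other member rose. The lowest log2 fold change of the list, -2.79, belonged to a gene that did not pass the test.

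Of 12 tested genes of ethylene perception and signalling, 3 rose and 5 fell, counts that became 2 and 7 with RLE or upper quartile scaling. ACO1 is counted here too, because an older symbol of it matches the list. EIN2, the membrane protein that passes the signal to the nucleus, was at 13.1, 13.3 and 12.6 FPKM at T1 and 22.2, 21.5 and 22.3 FPKM at T2 and rose by 0.71 ± 0.074. Among the EIN3-like factors, EIL2 rose from 45.8 to 65.5 FPKM (0.51 ± 0.084) whereas EIL3 fell from 80.7 to 50.2 FPKM (-0.67 ± 0.027). The receptor ETR2 fell from 40.9 to 23.5 FPKM (-0.77 ± 0.077). Further down the chain, ERF1 was at 1206, 1156 and 1229 FPKM at T1 and 749.8, 737 and 757 FPKM at T2 and ERF2 at 132, 134 and 137 FPKM at T1 and 52.1, 55.8 and 55.1 FPKM at T2. Both ethylene response factors were lower in every T2 library, by 0.68 and 1.29 on the log2 scale.

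ERF1 and ERF2 were part of a broad fall of AP2/ERF domain factors. Of 38 tested members of this family, 28 fell (73.7%) and 7 rose (18.4%), against 28.4% and 36.7% of all genes and 44.3% and 34.7% of named genes, and 14 of the falls were at least 2-fold. The median log2 fold change was -0.74. With RLE size factors 29 fell and 6 rose. Besides AP2D50, AP2D17 and AP2D16, AP2D40 fell from 76.4 to 9.61 FPKM, AP2D24 from 35.2 to 5.11 FPKM and AP2D42 from 288 to 99.1 FPKM. AP2D29 was the only member that rose at least 2-fold, and the next, AP2D10, rose from 6.72 to 10.2 FPKM.

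Of 4 tested genes of fermentation and the low oxygen response, 2 fell (50.0%, against 28.4% of all genes) and 2 did not pass the test. Beside GLB1, this list held the 3 glutamate decarboxylases GAD1, GAD2 and GAD3, which make gamma-aminobutyrate. GAD1 was at 522, 519 and 530.2 FPKM at T1 and 507, 505 and 512 FPKM at T2, a difference that did not pass the test (log2 fold change -0.042 ± 0.027, limma adjusted p = 0.175) but did with RLE size factors (-0.19) and upper quartile scaling (-0.20). GAD2 fell from 22.1 to 11.5 FPKM (-0.89 ± 0.056). GAD3 was listed at 0 in all 6 ULO libraries. ADH1-1 (LOC103428551), an alcohol dehydrogenase that reduces acetaldehyde to ethanol, is not among these 4, because the spelling of its symbols did not match the pattern of the list. It was at 62.5, 60.3 and 59.3 FPKM at T1 and 18.6, 17.4 and 15.5 FPKM at T2. It was lower in every T2 library, by 1.77 on the log2 scale.

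PPO, the polyphenol oxidase whose activity browns cut or damaged apple tissue, was at 19.6, 17.3 and 17.9 FPKM at T1 and 23, 23 and 22.9 FPKM at T2. All T2 libraries were above all T1 libraries, but the step was small (log2 fold change 0.32 ± 0.047, limma adjusted p = 8.72e-07). Among genes of phenolic synthesis, 8 of 15 tested flavonoid and dihydrochalcone genes rose and 2 fell (53.3% and 13.3%, against 36.7% and 28.4% of all genes), with a median log2 fold change of 0.72. UGT88F1 (LOC103402192), the glucosyltransferase that makes the apple dihydrochalcone phlorizin, was at 132, 134 and 133 FPKM at T1 and 421, 429 and 423 FPKM at T2. It rose by 1.66 ± 0.028 with no overlap. F3H, flavanone 3-hydroxylase, rose from 24.3 to 60.5 FPKM (1.28 ± 0.047), and CHS1, a chalcone synthase at the entry of the pathway, from 3.05 to 6.39 FPKM (0.87 ± 0.13). DFR, dihydroflavonol reductase, was at 12.4 ± 0.457 FPKM at T1 and 10.8 ± 0.778 FPKM at T2 and did not pass the test (limma adjusted p = 0.166); with RLE size factors it did, at a log2 fold change of -0.32. UGT71A15, another phloretin glucosyltransferase, fell from 100.3 to 39.6 FPKM (-1.32 ± 0.04). UGT71K1 fell (log2 fold change -0.21 ± 0.066), a call that was lost without the c replicate of T1 (-0.14) or of T2 (-0.13). It was also lost with the compared libraries fitted alone. LAR1, leucoanthocyanidin reductase, was at 1.96, 1.97 and 1.68 FPKM at T1 and 21, 0 and 24 FPKM at T2. Its second T2 library was listed at 0 beside 2 libraries above 20 FPKM, so the difference did not pass the test (limma adjusted p = 0.22); without that library the log2 fold change was 3.03 and passed.

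Lipoxygenases parted by family member. Of 15 tested genes of ester formation and lipoxygenases, 9 rose and 4 fell, and all 4 that fell did so at least 2-fold. LOX1c was at 21.1, 21 and 21.4 FPKM at T1 and 3.75, 3.07 and 2.87 FPKM at T2, and LOX2a at 33.1, 35.1 and 32.6 FPKM at T1 and 5.43, 6.31 and 6.07 FPKM at T2. These 2 lipoxygenases fell by 2.39 and 2.32 on the log2 scale, in the direction opposite to LOX5a and LOX5b, and LOX2b fell from 13 to 2.44 FPKM. LOX6b rose from 9.55 to 23.2 FPKM (1.2 ± 0.066). AAT1 (LOC103406706), the alcohol acyltransferase that forms the esters of apple aroma, was at 286, 277 and 280.1 FPKM at T1 and 514, 523 and 527 FPKM at T2. It rose by 0.89 ± 0.031, and AAT2 from 46.6 to 66.6 FPKM.

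Cell wall enzymes also moved both ways, with 3 of 5 tested genes higher and 2 lower (60% and 40%, against 36.7% and 28.4% of all genes). PG1, the polygalacturonase tied to softening of ripe apples, was at 206, 206 and 199.5 FPKM at T1 and 65.5, 67 and 65.7 FPKM at T2 and fell by 1.61 on the log2 scale, while EXPA1 rose. XET01 and XET02, xyloglucan endotransglycosylases, went from 166 to 90.1 FPKM and from 63.8 to 94.8 FPKM. PGIP1 (LOC103454277), a polygalacturonase-inhibiting protein of plant defence, was among the 10 highest genes. Its level was 4329, 4298 and 4129 FPKM at T1 and 765, 769 and 727 FPKM at T2. All T2 libraries were far lower (log2 fold change -2.5 ± 0.029, limma adjusted p = 6.71e-30), though reads of near-identical PGIP copies can be shared between genes. GDSL (LOC103421823), by its name a GDSL-type lipase or esterase, was at 51.2, 48.8 and 49.5 FPKM at T1 and 173, 190.5 and 175 FPKM at T2 and rose by 1.83 ± 0.058.

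Several genes of defence proteins and apple allergens were very high at both times. Of 6 tested members of this list, which held the barely detected PR1a but not PGIP1, 4 fell and 2 rose. These are 66.7% and 33.3%, against 28.4% and 36.7% of all genes. PR-10c, of the family of the birch-pollen-related apple allergen, was at 9602, 9691 and 9443 FPKM at T1 and 5559.7, 5742 and 5507 FPKM at T2. PR-5a, a thaumatin-like protein, was at 1624, 1669 and 1597 FPKM at T1 and 1274, 1327 and 1186 FPKM at T2. These fell by 0.77 and 0.37 on the log2 scale, and neither overlapped. MALD3, the lipid transfer protein allergen, rose by only 0.12 ± 0.039, a rise that turned to -0.031 with RLE size factors and -0.034 with upper quartile scaling. It lost its call without the a replicate of T1 (0.091), without the filter and with the compared libraries fitted alone. PR1a was barely detected, at 0.201, 0.607 and 0.428 FPKM at T1 and 0.974, 0.585 and 0.864 FPKM at T2, and its call was lost under the same 2 scalings. Its call was also lost without the a replicate of T1 (0.25), the a replicate of T2 (0.29) or the c replicate of T2 (0.34). PR1a was not called with the compared libraries fitted alone either.

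Of 5 tested dehydrins, 4 fell (80%, against 28.4% of all genes) and 1 did not pass the test. The median log2 fold change was -0.67. DHN9 stood at 7247, 6893 and 7229 FPKM at T1 and 4479, 4469.6 and 4454 FPKM at T2, the seventh highest gene of the ULO libraries, and fell (log2 fold change -0.67 ± 0.039). DHN8 fell from 315 to 198 FPKM. DHN10, at 4.72 ± 1.07 FPKM at T1 and 5.44 ± 0.485 FPKM at T2, did not pass the test. Heat shock genes divided into chaperones and factors. Hsp2 (LOC103435013), by its name a heat shock protein, was at 109, 105 and 109.9 FPKM at T1 and 679, 673 and 706 FPKM at T2 and HSP90.5, an Hsp90-type chaperone, at 44.7, 43.6 and 47.6 FPKM at T1 and 180.2, 179 and 179.7 FPKM at T2. Both were higher in every T2 library, by 2.65 and 1.97 on the log2 scale. In contrast, HSF1 fell from 13.5 to 8.45 FPKM and HSF3 from 14.9 to 12.1 FPKM. In all, 5 of 8 tested members fell (62.5%, against 28.4% of all genes). That count of 5 was 2 to 3 in the 6 libraries fitted alone and without the a or b replicate of T1 or the b or c replicate of T2.

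Sugar and starch genes rose more often than they fell, with 9 of 15 tested members higher and 3 lower (60% and 20%). Of named genes 34.7% rose and 44.3% fell, and of all genes 36.7% and 28.4%. Sorbitol dehydrogenase, which turns the sorbitol that apple imports into fructose, gave 3 named genes. SDH2 was at 62.7, 59.5 and 62.4 FPKM at T1 and 228, 230.1 and 229 FPKM at T2 and SDH1 at 475, 468 and 467 FPKM at T1 and 814, 833 and 841 FPKM at T2. Both rose without overlap (1.88 ± 0.025 and 0.82 ± 0.02), but SDH6 fell from 508 to 399 FPKM. HXK1, hexokinase, rose from 12.8 to 41.2 FPKM and GBSSIa, granule-bound starch synthase, from 22.5 to 64.9 FPKM. AMY10, an amylase by its name, fell from 202 to 81.2 FPKM (-1.3 ± 0.056), and the sucrose transporter SUT1 from 33.6 to 17.4 FPKM (-0.91 ± 0.074). UGE, UDP-glucose epimerase, rose from 123 to 174 FPKM with 1 T1 library, at 97.4 FPKM, below the other two at 134 and 138 FPKM.

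Transcription factor families other than AP2/ERF differed in balance. Of named genes as a whole, 34.7% rose and 44.3% fell. TCP factors, which in Arabidopsis set the balance of cell division and growth, rose in 7 of 10 tested members and fell in 1 (70% and 10%), with 2 falls under RLE or upper quartile scaling. TCP9 was at 24.6, 23.3 and 22.9 FPKM at T1 and 58.4, 61.5 and 60.8 FPKM at T2 and TCP3 at 31.9, 31.3 and 34.6 FPKM at T1 and 78, 79.8 and 77.7 FPKM at T2. Both rose, by 1.32 and 1.24 on the log2 scale, and TCP8 fell from 2.12 to 0.37 FPKM. Of 13 bZIP factors 7 rose and 4 fell, with BZIP16 rising from 83 to 161 FPKM and BZIP3 falling from 29.6 to 16.6 FPKM. WRKY factors, known from defence, fell in 8 of 13 members (61.5%). WRKY12 was at 14.8, 15.4 and 14.2 FPKM at T1 and 1.92, 2.88 and 1.65 FPKM at T2. It fell by 2.34 on the log2 scale and WRKY9 by 1.44. The 2 WRKY calls upward, WRKY1 (0.17 ± 0.041) and WRKY2 (0.22 ± 0.09), were lost with RLE and upper quartile scaling. That of WRKY2 was also lost without any 1 of the libraries other than the c replicate of T1 (0.21 to 0.23). Scaling to a total of 1000000 lost the WRKY2 call too.

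MYB-related factors fell in 10 of 17 members (58.8%) and rose in 4 (23.5%). MADS-box factors fell in 7 of 13 (53.8%) and rose in 2 (15.4%). Of named genes 44.3% fell and 34.7% rose. MADS6 went from 469.8 to 207 FPKM and MADS11 from 64.2 to 32.5 FPKM, while MADS7 rose from 65.1 to 119.7 FPKM. MYB factors (11 of 28 higher, 13 lower), NAC factors (8 of 18 higher, 7 lower), homeodomain factors (5 of 17 higher, 7 lower), bHLH factors (4 of 9 higher, 3 lower) and GRAS factors (4 of 9 higher, 4 lower) were more evenly divided. Single genes within them moved strongly. MYB5 fell from 335 to 112 FPKM, NAC22 from 1002 to 406 FPKM and HD12 from 189 to 69.8 FPKM, while NAC1 rose from 79.6 to 144 FPKM. RGL2b, a DELLA-type repressor of gibberellin responses by its name, fell from 20.3 to 5.87 FPKM. Zinc finger and other factors rose in 11 of 31 members (35.5%) and fell in 15 (48.4%), near the shares of named genes. Among them, C2H2L20 fell from 148 to 34.8 FPKM and COL6, a CONSTANS-like gene, rose from 2.66 to 12 FPKM.

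Among hormone genes other than those of ethylene, 5 of 9 Aux/IAA genes, repressors of auxin responses, rose and 2 fell (55.6% and 22.2%). The shares of all genes were 36.7% and 28.4%. With RLE or upper quartile scaling 3 Aux/IAA genes rose. IAA6 was at 15.6, 13.5 and 14.9 FPKM at T1 and 49.6, 50.4 and 49.1 FPKM at T2 and IAA8 at 20.6, 20.1 and 19.4 FPKM at T1 and 3.53, 3.93 and 3.49 FPKM at T2. The first rose and the second fell, with no overlap (1.7 ± 0.048 and -2.18 ± 0.16). The auxin response factors ARF1 and ARF2 went from 2.38 to 5.04 FPKM and from 4.37 to 1.47 FPKM, and ARF3, at 5.98 ± 0.548 FPKM at T1 and 4.8 ± 0.73 FPKM at T2, overlapped between times. Its call was lost without the a or b replicate of either time (log2 fold change -0.27 to -0.22). The ARF3 call was also lost with scaling to a total of 1000000, without the filter and with the compared libraries fitted alone. CYP707A, whose product breaks down abscisic acid, rose from 0.327 to 1.59 FPKM, and the gibberellin receptor gene GID1b from 37.1 to 61.4 FPKM. Of 37 stress kinases 12 rose and 21 fell (32.4% and 56.8%). Named genes rose in 34.7% and fell in 44.3%, and all genes in 36.7% and 28.4%. CIPK14, a kinase of the family that works with calcineurin B-like calcium sensors, was at 38.1, 38.3 and 39.1 FPKM at T1 and 152, 156 and 156 FPKM at T2. It rose by 1.98 ± 0.023, whereas CIPK15 fell from 58.7 to 15.8 FPKM and CIPK03 from 111 to 44.7 FPKM. The aquaporin gene PIP1 was at 108, 107 and 104 FPKM at T1 and 134, 131 and 133 FPKM at T2 and rose by 0.32 ± 0.057.

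Genes of the mitochondrial genome were mostly lower at T2. Of 32 tested, 24 fell (75.0%), 1 rose (3.13%) and 7 did not pass the test, with a median log2 fold change of -0.89, which was -0.98 with RLE size factors. Of named genes 44.3% fell and 34.7% rose, and of all genes 28.4% and 36.7%. nad6, a subunit of respiratory complex I, was at 11.9, 13.7 and 13.2 FPKM at T1 and 3.11, 2.19 and 1.87 FPKM at T2. atp1, a subunit of ATP synthase, was at 21.2, 20.9 and 20.9 FPKM at T1 and 7.35, 7.65 and 7.93 FPKM at T2. Both were lower in every T2 library, by 2.06 and 1.35 on the log2 scale. atp9, another ATP synthase subunit, was the 1 member that rose, from 47.3 to 68.5 FPKM. The labels do not state how messenger RNA was enriched, and its part in organelle transcript levels was not tested.

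**Figure D2:**
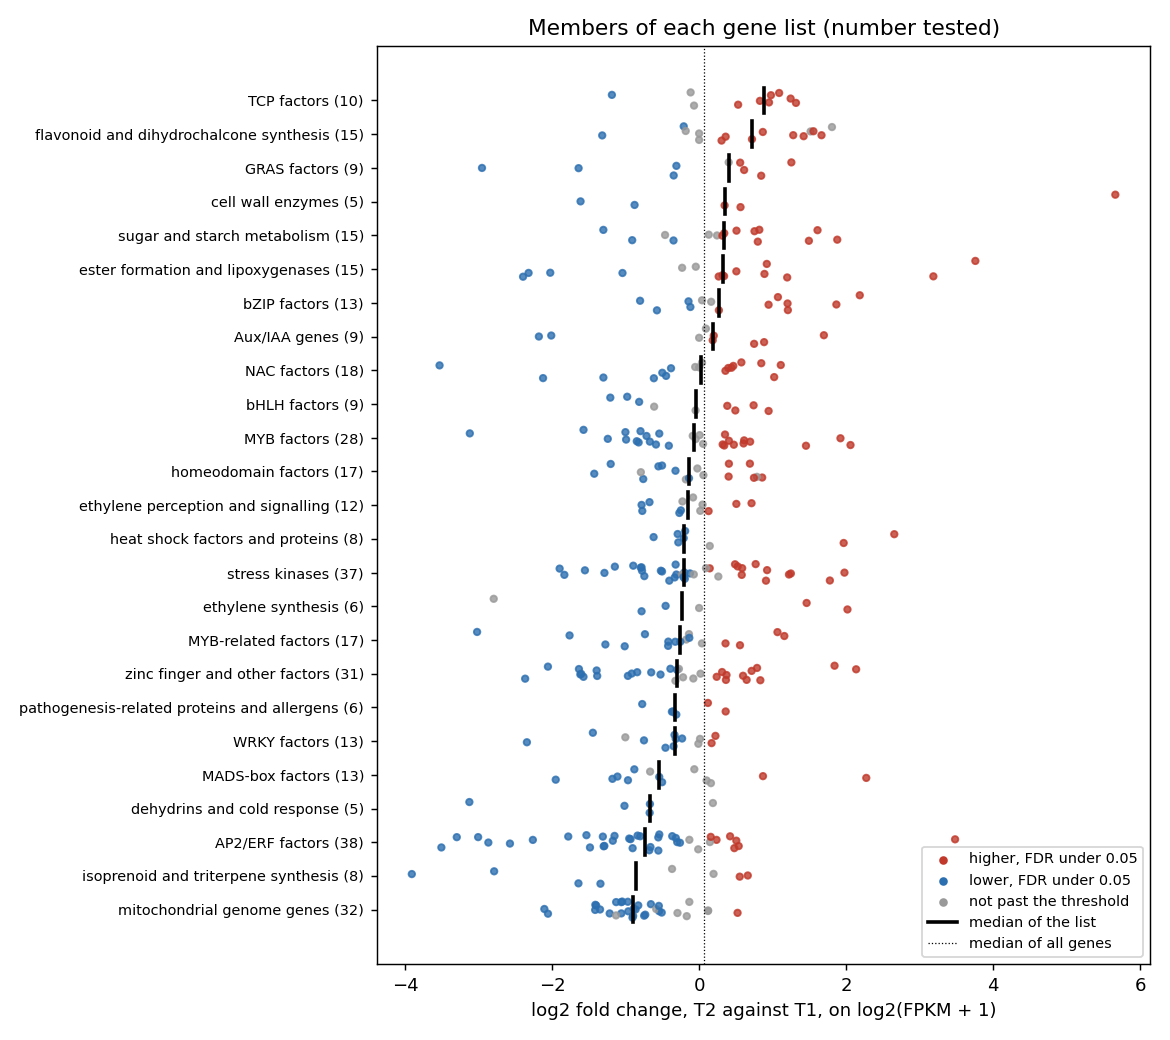
Log2 fold change (T2 against T1 in ULO without SL, on log2(FPKM + 1)) of each tested member of the 25 gene lists with at least 5 tested members; red points rose and blue points fell at a false discovery rate under 0.05, grey points did not pass, and black bars are list medians. TCP factors (median 0.89) and flavonoid genes (0.72) lie right of the median of all genes (dotted line, 0.064), and AP2/ERF factors (-0.74) and mitochondrial genes (-0.89) lie left.

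Both low oxygen regimes without SL had responses that ran alike in many genes. Across the 32923 genes, which are not independent replicates, the log2 fold changes of ULO correlated with those of DCA_CF at r = 0.832, with those of RA at r = 0.305 and with those of ULO with SL at r = -0.0062. None of these responses shares a library with that of ULO. At the same threshold 22777 genes (69.2%) changed in DCA_CF, 13577 up (41.2%) and 9200 down (27.9%), and 15992 (48.6%) in RA, 8293 up (25.2%) and 7699 down (23.4%). Of 12092 genes that rose in ULO, 10593 (87.6%) also rose in DCA_CF, which is 78.0% of those that rose there, 5050 (41.8%) in RA, 60.9% of those there, and 2123 (17.6%) in ULO with SL, 43.8% of those there. Of 9361 genes that fell, 7270 (77.7%), 4129 (44.1%) and 1799 (19.2%) fell in the same regimes, which is 79.0%, 53.6% and 36.6% of the genes that fell in each. Opposite calls among the 12092 numbered 282 (2.33%) in DCA_CF, 1753 (14.5%) in RA and 2214 (18.3%) in ULO with SL. Among the 9361 they numbered 413 (4.41%), 1487 (15.9%) and 1728 (18.5%). Of all genes tested, 14.7% rose and 15% fell in ULO with SL. Among the 4028 genes that rose at least 2-fold in ULO, the median log2 fold change was 1.42 in ULO, 1.73 in DCA_CF, 0.36 in RA and 0.014 in ULO with SL.

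**Figure D3:**
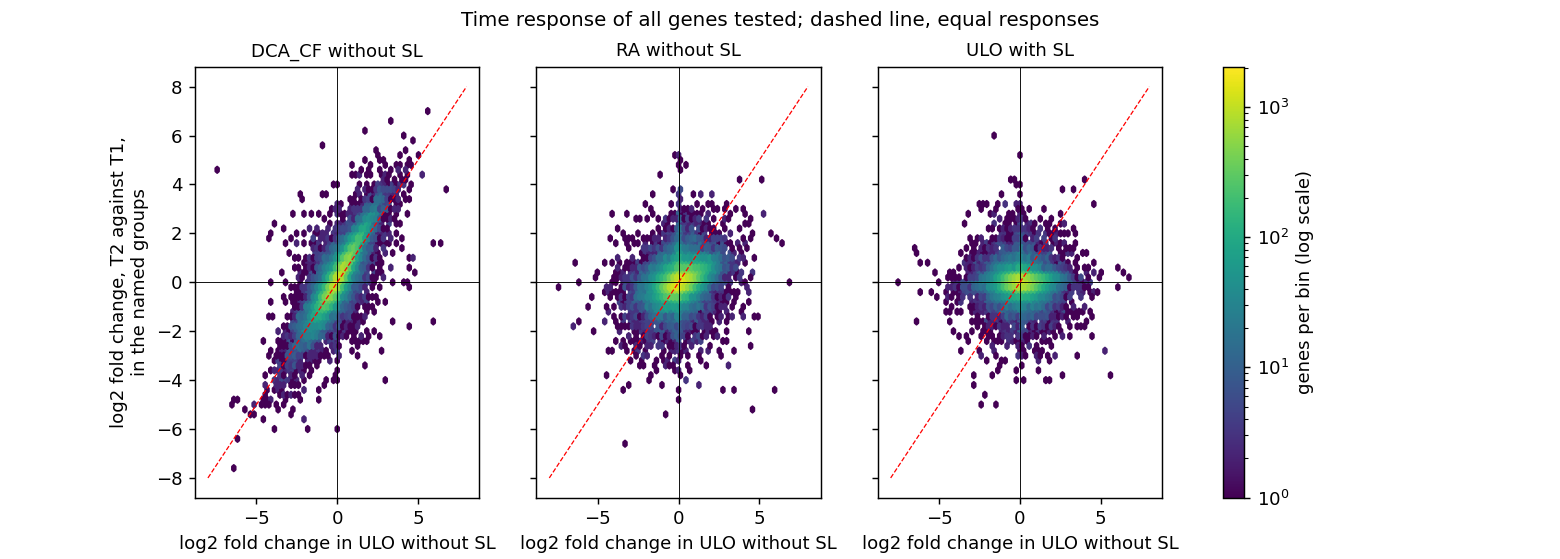
Log2 fold change from T1 to T2 in ULO without SL (x axis) against that in DCA_CF without SL, RA without SL and ULO with SL (y axes, left to right) for all 32923 genes; colour is the number of genes per bin on a log scale and the dashed line marks equal responses. The cloud runs along the line for DCA_CF (r = 0.832), is broad for RA (r = 0.305) and shows no slope for ULO with SL (r = -0.0062).

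Even so, the response differed between ULO and DCA_CF in 11271 genes (34.2%) when the difference itself was tested in limma, 3680 of them (11.2%) more positive in ULO and 7591 (23.1%) more negative. With RLE size factors this split was 4818 to 5564, and with upper quartile scaling 4779 to 5692. The difference reached 2-fold in 440 genes (1.34%) upward and 800 (2.43%) downward, or 532 and 587 with RLE size factors. OMT1 was the named gene whose response in ULO exceeded that in DCA_CF most: in DCA_CF it was at 16.8 ± 1.36 FPKM at T1 and 21.4 ± 1.08 FPKM at T2 (SD, n = 3), and the difference of the responses was 2.02 ± 0.055. UGE rose in ULO but fell in DCA_CF (-1.03), and PG1 fell less in ULO than in DCA_CF (-3.12). On the other side, CAS2 and Hsp2 rose less than in DCA_CF, where their log2 fold changes were 3.88 and 4.38. AFS1 and PPO changed in opposite directions in these regimes. AFS1 fell in DCA_CF, with 362 ± 8.84 FPKM at T1 and 289 ± 8.03 FPKM at T2, against its rise in ULO (difference 0.88 ± 0.039). PPO also fell in DCA_CF, with 24.2 ± 1.1 FPKM at T1 and 10.8 ± 0.654 FPKM at T2 (difference 1.42 ± 0.066, limma adjusted p = 1.7e-15).

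Against RA, the response differed in 18178 genes (55.2%), 10427 (31.7%) upward and 7751 (23.5%) downward, or 8494 and 9316 with RLE size factors, which lowered the median difference over all genes by 0.113. At least 2-fold differences numbered 3359 (10.2%) upward and 2725 (8.28%) downward, or 2593 and 3191 with RLE size factors. GLB1 was the named gene with the most negative difference: in RA it was at 290.1 ± 20.5 FPKM at T1 and 505 ± 23.1 FPKM at T2 and rose, so the difference was -5.27 ± 0.098. GDSL fell in RA, with 38.5 ± 2.93 FPKM at T1 and 5.11 ± 0.489 FPKM at T2, and its difference, 4.52 ± 0.082, was the most positive. HMG1 and OSC3 rose slightly in RA (0.14 and 0.18) while they fell in ULO. ADH1-1 also rose slightly in RA (0.31). AFS1 fell in RA, with 618 ± 9.78 FPKM at T1 and 249 ± 2.13 FPKM at T2, with a difference of 1.86 ± 0.039. PPO was far higher in RA, at 1308 ± 39.8 FPKM at T1 and 1311 ± 18.6 FPKM at T2, and did not pass the test between T1 and T2 there.

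Against ULO with SL, the response differed in 19372 genes (58.8%), 11045 (33.5%) upward and 8327 (25.3%) downward, or 9404 and 9780 with RLE size factors. At least 2-fold differences numbered 4571 (13.9%) upward and 3021 (9.18%) downward, or 3728 and 3548 with RLE size factors. With SL, 9766 genes (29.7%) passed the test between T1 and T2, 4844 up (14.7%) and 4922 down (15%). EXPA1 fell in ULO with SL, with 32.3 ± 1.8 FPKM at T1 and 1.49 ± 0.242 FPKM at T2, against its steep rise without SL (difference 9.4 ± 0.13, limma adjusted p = 2.66e-28). DHN2 rose with SL, with 1136 ± 23.8 FPKM at T1 and 4209 ± 171 FPKM at T2, against its fall without SL (difference -5.01 ± 0.058). AP2D47 likewise rose with SL (1.64) and fell without it (-2.26). LOX5b and GLB1 did not pass the test with SL, where LOX5b was high, at 667 ± 22.7 FPKM at T1 and 695 ± 59.5 FPKM at T2, and GLB1 low, at 18.9 ± 1.14 FPKM at T1 and 17.8 ± 0.425 FPKM at T2. HMG1 rose with SL (0.46) and CAS2 fell (-1.22), each opposite to its direction without SL.

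**Figure D4:**
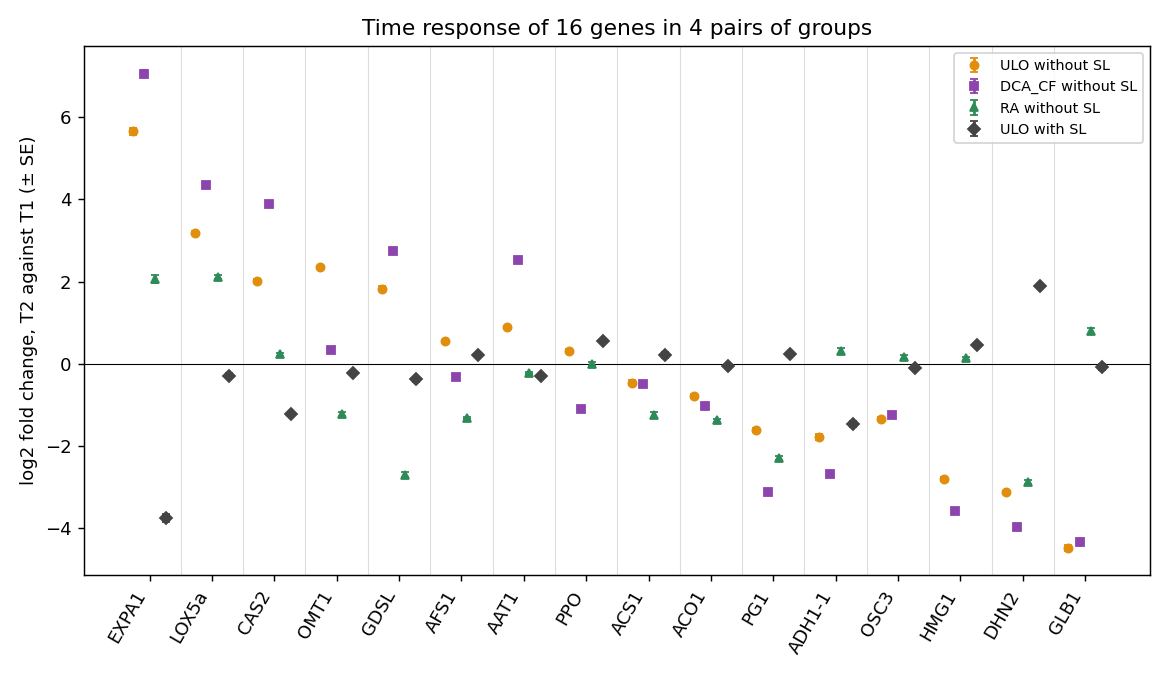
Log2 fold change from T1 to T2 (± SE, limma) of 16 genes in ULO without SL, DCA_CF without SL, RA without SL and ULO with SL. For most genes the ULO and DCA_CF points lie on the same side of 0, whereas EXPA1 stands at 5.66 in ULO without SL and -3.74 in ULO with SL.

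The shares of all genes that rose and fell were 36.7% and 28.4% in ULO and 41.2% and 27.9% in DCA_CF. They were 25.2% and 23.4% in RA, and 14.7% and 15% in ULO with SL. Of the 38 AP2/ERF factors, 7 rose and 28 fell in ULO, 6 and 26 in DCA_CF, 12 and 15 in RA, and 13 and 14 in ULO with SL. The difference of the response was positive in 11 and negative in 8 of them against DCA_CF, where 11.2% and 23.1% of all genes differed in these directions. Against RA it was positive in 7 and negative in 26 (31.7% and 23.5% of all genes), and against ULO with SL positive in 7 and negative in 27 (33.5% and 25.3% of all genes). Of the 32 mitochondrial genes, 1 rose and 24 fell in ULO, 2 and 25 in DCA_CF, 3 and 13 in RA, and 5 and 3 in ULO with SL. Their difference was positive in 2 and negative in 4 against DCA_CF, in 2 and 14 against RA, and in 1 and 27 against ULO with SL. Of the 10 TCP factors, 7 rose and 1 fell in ULO, 7 and 2 in DCA_CF, 3 and 1 in RA, and 2 and 1 in ULO with SL. Their difference was positive in 0 and negative in 5 against DCA_CF, in 8 and 2 against RA, and in 6 and 3 against ULO with SL. The shares of all genes given beside the AP2/ERF differences are the background for mitochondrial genes and TCP factors too.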

How the data were processed

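Per the labels' protocols, RNA of peel was isolated with a plant kit and sequenced from Illumina libraries that do not keep strand, so antisense transcripts are counted with genes. HISAT2, StringTie and DESeq2 are named in the submitters' processing notes; versions and genome build are not given in the sources used here, and no coordinates are printed. The deposited values, 1 column per library in a sheet named for counts, are read here as FPKM; no source states the unit, the values are not whole, and TPM over part of the genes would look the same. Columns headed DCA were matched to the DCA_CF samples by time, SL tag and letter. Gene names are those of the table, and 34074 of its identifiers were found in a RefSeq gene table used for synonyms and gene types.

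The filter kept genes reaching 1 FPKM in 3 or more of the 36 libraries. The test used log2(FPKM + 1), a scale on which changes of low genes come out too small. In limma 3.58.1 (R 4.3.3), a mean for each group was estimated from its 3 libraries. The variance of each gene was estimated from all 36 libraries and moderated (eBayes, trend). Contrasts were T2 against T1 in ULO and its difference from the response of 3 other regimes, two-sided, with Benjamini-Hochberg adjustment over all 32923 genes at 0.05. The procedure was run on simulated data with normal noise and few changed genes. It was not tested where most genes change, as they do here. Gene lists are patterns on symbols, described by counts and medians with no set test. Named genes are up to 10 per direction by log2 fold change (adjusted p under 0.05, mean log2 level of at least 2, no overlap), up to 2 per list and direction by p, up to 3 per direction in each difference, and a set list of scald and ripening genes. A few others (PGIP1, OSC1, DHN9, ETR2, ERF1, ERF2, SUT1, HXK1, GBSSIa and genes given only by their mean levels) were chosen after their values were seen. The members, lists and tests were chosen with earlier results of these data known. Read depth is unknown, so no counting intervals are given. No pair of libraries in a group shared identical values. Alternatives were other scalings, a pseudocount of 0.1, all genes without the filter, a block by replicate letter, the compared libraries alone, leaving out genes listed at 0 beside 5 FPKM or more in the same group, and leaving out each of the 6 libraries.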

Additional observations from a re-analysis of the deposited data

Results flagged for a closer look

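The time response in ULO without SL differed, by the limma test of the difference itself, from that of DCA_CF in 11271 genes, from that of RA in 18178 genes and from that of ULO with SL in 19372 genes. The values below are differences of log2 fold changes, ULO without SL minus the other regime, each past a false discovery rate of 0.05 and each from 3 libraries a group.

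Against DCA_CF, the difference was positive in OMT1 (2.02), UGE (1.54), PG1 (1.5), PPO (1.42) and AFS1 (0.88) and negative in CAS2 (-1.87), Hsp2 (-1.73) and SDH6 (-1.72). SDH6, a sorbitol dehydrogenase, fell in ULO (-0.35 ± 0.021) and rose in DCA_CF (1.38).

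Against RA, the difference was positive in GDSL (4.52), EXPA1 (3.59), OMT1 (3.57), AFS1 (1.86), LOX6b (1.42) and AAT1 (1.11) and negative in GLB1 (-5.27), AP2D16 (-3.48), AP2D17 (-3.32), HMG1 (-2.92), ADH1-1 (-2.07) and OSC3 (-1.52). AAT1 and LOX6b rose in ULO and fell in RA (-0.22 and -0.23).

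Against ULO with SL, the difference was positive in EXPA1 (9.4), LAR1 (3.97), LOX5b (3.7), CAS2 (3.24), GDSL (2.2), AAT1 (1.19) and PIP1 (0.58) and negative in DHN2 (-5.01), GLB1 (-4.39), AP2D47 (-3.9), HMG1 (-3.25), PG1 (-1.86) and ACS1 (-0.67). The LAR1 value rests on T2 libraries at 21, 0 and 24 FPKM and lost its call without the a replicate of T2 (3.26) or the c replicate of T2 (3.17). Groups of 3 libraries were not tested for single outlying samples.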

How the results depend on the processing

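Of the 21453 genes that changed from T1 to T2, 19619 kept the call in the same direction with RLE size factors and 3 were called in the opposite one; upper quartile scaling gave 19607 and 4, and 20371 kept it with a pseudocount of 0.1. That pseudocount raised the genes lower at least 2-fold to 4074 from 2714, and those with a more negative response than DCA_CF by at least 2-fold to 1805 from 800. Leaving out each library in turn gave 20502 to 20563 genes for T2 against T1, 10374 to 10585 for the difference from DCA_CF, 17480 to 17583 for RA and 18718 to 18829 for ULO with SL. Replicate letters did not pair the libraries: deviations of same-letter libraries correlated at 0.0256, 0.0236 and -0.0025. With the letter as a replicate block 21426 genes changed (12073 higher, 9353 lower), and no call of a gene followed through the alternatives moved. Of 153 gene values recomputed, 11 changed their call in some setting, and MALD3 was the 1 that reversed (-0.031 with RLE size factors, -0.034 with upper quartile scaling); the cause was not tested. Of 50 list counts, 6 moved by over 1.5 times in some setting. Replicates of low genes spread more than those of high genes, and genes listed at 0 in part of a group (421 at T1 and 479 at T2 beside 5 FPKM or more) have wide errors.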

Other observations

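Gene types differed in how they moved. Of 20787 protein-coding genes tested, 43.0% rose and 30.2% fell between T1 and T2, whereas of 774 lncRNA genes, long RNAs that encode no protein, 17.6% rose and 34.1% fell, and of 501 pseudogenes 19.2% rose and 35.3% fell. With RLE size factors the lncRNA counts went from 136 higher and 264 lower to 109 and 299, and those of protein-coding genes from 8943 and 6273 to 7615 and 7375. The median T1 level was 6.83 FPKM for protein-coding genes and 2.07 FPKM for lncRNA genes, and the part of level in the smaller share of calls was not tested.

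Some genes switched between near silence and clear expression. Under 1 FPKM in every T1 library and at 5 FPKM or more in every T2 library were 122 genes, and 83 did the converse, AP2D16 and AP2D17 being the named ones. Of the 122 genes, 116 also rose in DCA_CF, 74 in RA and 27 in ULO with SL. Of the 83, 77 also fell in DCA_CF, 37 in RA and 10 in ULO with SL. These are counts of calls in the same direction, not tests of a difference. Of all genes tested, 41.2% rose in DCA_CF, 25.2% in RA and 14.7% in ULO with SL. The shares that fell there were 27.9%, 23.4% and 15%. The unnamed genes given next were chosen after their values were seen. LOC103422644 was listed at 0 in all 3 T1 libraries and stood at 66.3, 63.7 and 63.2 FPKM at T2. LOC103423853 was at 469, 439 and 480.0 FPKM at T1 and 4.89, 3.91 and 4.3 FPKM at T2, a log2 fold change of -6.44 ± 0.12, and with SL it rose in ULO (1.19). LOC103450864 was at 178, 179 and 176 FPKM at T1 and listed at 0 in all 3 T2 libraries.

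MADS10, a MADS-box factor, was at 0.354, 0.323 and 0 FPKM at T1 and 4.78, 4.83 and 5.0 FPKM at T2 and rose in all 4 time responses, by 2.27 in ULO, 2.15 in DCA_CF, 2.25 in RA and 1.83 in ULO with SL. GATA1, of the GATA zinc finger family, was close to silent at T1: 0.107, 0.149 and 0.197 FPKM at T1 and 3.94, 4.15 and 4.08 FPKM at T2. It rose by 2.14 ± 0.089.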
